A study of Mus musculus with 8 samples.

Results

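Immunoglobulin variable (V) gene segments were followed in RNA of ascending aortae, taken from male C57BL/6J mice at the age of 10 weeks. The 4 Fbn1mgR/mgR samples (arrays mgR611, mgR612, mgR613 and mgR614) carried the hypomorphic mgR allele of the fibrillin-1 gene on both chromosomes, a model of Marfan syndrome with aortic aneurysm. The 4 wild-type samples (arrays WT675, WT676, WT742 and WT744) came from the same heterozygous breeding, and no treatment was labelled for either group. All gene segments named Ighv, Igkv or Iglv plus a number were taken from the deposited array table where the platform annotation gave a transcript cluster exactly 1 gene symbol. This found 199 members among 30142 genes with 1 symbol, each on 1 transcript cluster. They comprised 113 heavy chain segments in 15 families and 86 kappa chain segments in 20 families, and 0 lambda chain segments, since lambda symbols stood only on clusters shared by several genes.

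An antibody heavy chain is assembled in a developing B cell by joining 1 V segment to a D and a J segment ahead of the constant region, and a kappa or lambda light chain by joining 1 V segment to a J segment. A mature B cell and the plasma cells derived from it therefore transcribe mainly the segments they have joined, and the set of V transcripts in a tissue reflects which B lineage clones it holds. T cell receptor V segments are joined in the same way in developing T cells and served here for comparison. Ighv segments lie in the heavy chain locus on chromosome 12 and Igkv segments in the kappa locus on chromosome 6.

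Signals are log2 values normalized by the submitters, and differences are Fbn1mgR/mgR minus wild-type. Array medians over all 65956 transcript clusters lay between 3.95 and 4.07, and across clusters arrays of 1 genotype correlated at 0.989 to 0.993 and arrays of different genotypes at 0.984 to 0.990. Whether each sample is a separate animal is not labelled, and p-values therefore measure the spread of these samples, which may be technical. The Fbn1 transcript was not analysed here and did not serve to check the genotypes. The smooth muscle markers of the aortic wall were bright on every array, with a mean signal of 13.2 to 14.5 over 7 genes, and 0 of the 7 passed in either direction (limma; unadjusted p under 0.05 for 0 as higher and 1 as lower). The array mgR612 stood apart, with the highest signal of all arrays in 15 of 16 B cell markers and the lowest mean over 10 T cell markers (5.31 against 5.96 to 7.59 on the other arrays). It also had the highest signal in 10 of 13 macrophage markers, with a mean over them of 10.45 against 9.61 to 9.99 on the other mutant arrays. Where mgR612, or mgR611, which followed it in many V segments, moved a difference most, the value without them is given beside it. Leaving out both was decided after the values were seen. In bulk tissue, more B lineage cells and more RNA per cell cannot be told apart.

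Most V segments were dim. The 95th percentile of the mean signals of 1225 olfactory receptor genes, which the aorta is not known to use, was 4.11, and signals up to this limit are called the dim range. The wild-type mean lay in the dim range for 71 of 113 heavy and 68 of 86 kappa segments. The Fbn1mgR/mgR mean lay there for 52 heavy and 49 kappa segments. In 20 heavy and 20 kappa segments the mutant mean alone was above the limit, and the size of such a difference is uncertain. Segments with near-identical sequence can also share probe signal, and Ighv1-62-2 and Ighv1-71 had the same value on every array.

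The V segments as a whole were shifted toward higher signals in the Fbn1mgR/mgR aorta, unevenly between arrays. The difference was above 0 in 90 of 113 heavy segments, with a median of 0.17, and in 68 of 86 kappa segments, with a median of 0.26. Over all genes with 1 symbol the median was 0.00 and 49.9% were above 0. T cell receptor V segments had a median of -0.04, with 47 of 114 above 0. Without mgR612 the medians were 0.13 for heavy and 0.17 for kappa segments, with 83 of 113 and 62 of 86 above 0. Without both mgR611 and mgR612 they were 0.06 and 0.10, with 71 of 113 and 53 of 86 above 0. The T cell receptor median was 0.04 without mgR612, with 70 of 114 above 0, and 0.06 without both arrays, with 74 of 114 above 0. Without both arrays the T cell receptor and heavy chain medians were the same to 2 decimals. The difference between heavy and kappa segments was not tested.

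Few single segments passed the test across all clusters. Of the 89 members bright enough to be tested, 2 were higher at an adjusted p under 0.05 (limma with Benjamini-Hochberg adjustment over 32957 clusters). The same held for 1.54% of all tested clusters and for 401 of the 17868 tested genes with 1 symbol. The share of the members was thus near that of genes with 1 symbol. None of the 89 was lower by this test, against 0.558% of all tested clusters and 102 of the 17868 tested genes with 1 symbol. At an unadjusted p under 0.05 in limma, 15 of 55 heavy and 18 of 34 kappa segments were higher and 0 lower. Of all tested clusters 7.45% were higher and 6.72% lower, and of the 17868 tested genes with 1 symbol 1814 were higher and 1024 lower. The 2 were Igkv4-60 and Igkv4-70, and the count became 0 without mgR612 and 1 without mgR611, WT676, WT742 or WT744 in turn. Without mgR611 the 1 was Igkv6-13, so that neither of the 2 remained. It was Igkv4-60 without WT676 or WT742, and Igkv4-70 without WT744. The count stayed at 2 without mgR613 or WT675, but of the first 2 only Igkv4-70 and only Igkv4-60 remained. Without mgR614 it was 9, of which 2 were heavy and 7 kappa segments, with Igkv4-70 among them and Igkv4-60 not. The other 110 members fell below the signal filter and have no adjusted p. The filter used the mean over all 8 arrays, so some segments dim in wild-type samples were tested only through their mutant signals. Examples are Ighv11-1, Ighv11-2, Ighv8-6 and Igkv12-89, with wild-type means of 3.68, 3.76, 3.89 and 3.90. Others are Igkv4-91, Igkv4-60 and Igkv6-13, with 3.32, 3.79 and 3.94. Without the filter the limma adjusted p was 0.121 for Ighv8-6 and 0.0997 for Igkv6-13. Of kappa segments 34 were tested, while 18 had a wild-type mean above the dim range. The counts among tested members therefore do not stand for all members. Counting all 199 members, every mutant value exceeded every wild-type value in 12 heavy and 12 kappa segments, 12.1% of the members. This held for 5.06% of all genes with 1 symbol and 3.17% of all clusters. The opposite separation occurred in 0 members, against 856 of 30142 genes with 1 symbol and 2.42% of all clusters.

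**Figure D1:**
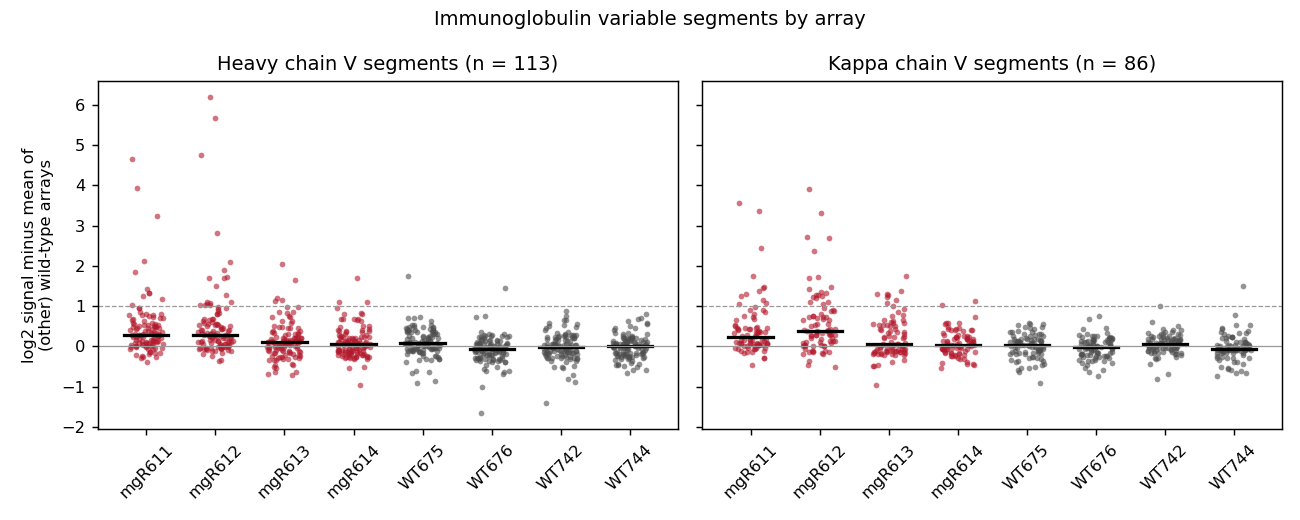
Each point is 1 V segment on 1 array (113 heavy segments at left, 86 kappa segments at right), plotted as its log2 signal minus the mean of the wild-type arrays, or of the other 3 wild-type arrays for a wild-type array; black bars are medians and the dashed line marks 1. Points above 1 are most frequent on mgR612 (18 heavy and 19 kappa segments) and mgR611 (11 and 12), and there are at most 1 per class on each wild-type array.

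The spread of these shifts over the arrays was followed as a gain, the log2 signal of an array minus the wild-type mean, where each wild-type array was set against the other 3. A gain over 1 was found in 11, 18, 5 and 3 heavy segments on mgR611, mgR612, mgR613 and mgR614. The same count was 1, 1, 0 and 0 on WT675, WT676, WT742 and WT744. In kappa segments it was 12, 19, 9 and 2 on the mutant arrays and 0, 0, 1 and 1 on the wild-type arrays. Over all genes with 1 symbol, 1.20%, 1.59%, 2.0% and 2.10% had such a gain on mgR611 to mgR614, and 0.299%, 1.32%, 0.265% and 0.438% on the wild-type arrays. The heavy and kappa shares were 9.73% and 13.95% on mgR611 and 15.9% and 22.1% on mgR612. On mgR614 they were 2.65% and 2.33%, near the share of all genes there. T cell receptor V segments showed 0 gains over 1 on the mutant arrays and 1, 0, 0 and 5 on the wild-type arrays.

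Gains over 1 were mostly not shared between mutant samples. Of the 49 members with a gain over 1 on at least 1 mutant array, 30 had it on 1 array only, and 19 of these on mgR612 alone and 8 on mgR611 alone. A further 10 members had it on 2 mutant arrays, 7 on 3 and 2 on all 4. These counts depend on the cut at 1, since smaller gains on the other mutant arrays are not counted. Igkv4-70, with gains of 0.86, 0.80, 1.07 and 0.42 on mgR611 to mgR614, counted under 1 array only. The highest of the 8 array values was on mgR612 in 37.2% of the members, against 9.32% of all genes with 1 symbol, and on mgR611 in 24.6%, against 15.6%.

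**Figure D2:**
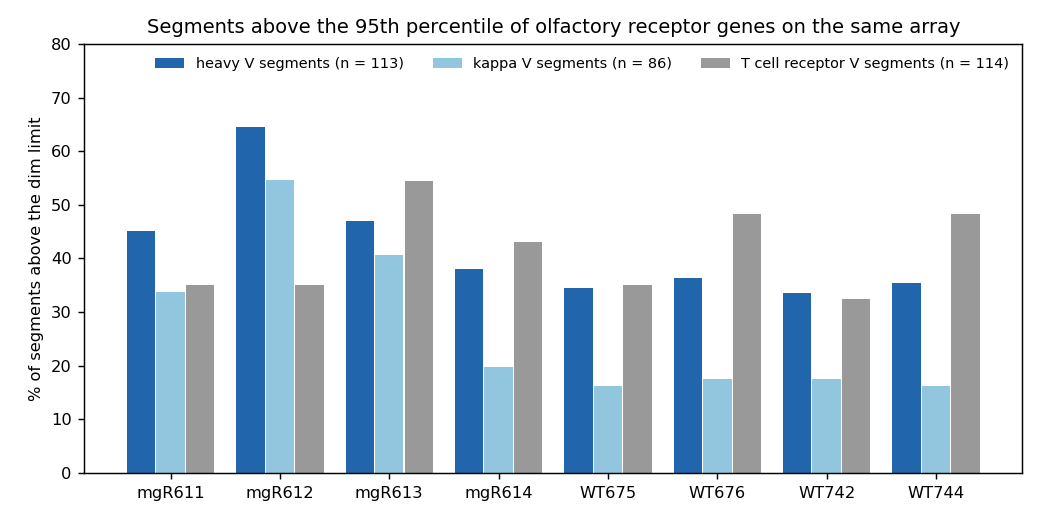
Bars give, for each array, the percent of heavy, kappa and T cell receptor V segments whose log2 signal exceeded the 95th percentile of olfactory receptor genes on that array; the axis starts at 0. The kappa share is highest on mgR612 (47 of 86 segments) and lies at 14 or 15 segments on every wild-type array, while the T cell receptor share is not higher on the mutant arrays as a group.

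Counted against the dim limit of each array, 51, 73, 53 and 43 heavy segments were above it on mgR611 to mgR614, and 39, 41, 38 and 40 on WT675, WT676, WT742 and WT744. For kappa segments the counts were 29, 47, 35 and 17 on the mutant arrays and 14, 15, 15 and 14 on the wild-type arrays. In both classes the lowest mutant count was above the highest wild-type count, for heavy segments only by 43 on mgR614 against 41 on WT676. Of all genes with 1 symbol, 53.2%, 57.2%, 56.8% and 54.8% were above the limit on the mutant arrays. On the wild-type arrays 54.5%, 56.4%, 52.9% and 54.2% were, with overlap between the groups. The limit itself ran from 4.07 on mgR612 and 4.09 on mgR613 to 4.34 on mgR611 and WT742. T cell receptor V segments above the limit numbered 40, 40, 62 and 49 on the mutant arrays and 40, 55, 37 and 55 on the wild-type arrays, with overlap between the groups.

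Among heavy chain segments, both members of the Ighv11 family had the highest differences. Ighv11 heavy chains are known from B-1 cells, a self-renewing B cell lineage of body cavities, where they form antibodies to phosphatidylcholine. Ighv11-1 read 8.34, 9.87, 5.32 and 5.37 on mgR611 to mgR614 and 3.20, 3.63, 3.73 and 4.15 on the wild-type arrays in the order above, which is kept for all values that follow. The groups did not overlap, mgR611 and mgR612 stood well above the other mutant arrays, and the wild-type mean was in the dim range. The difference was 3.55 with a standard error of 0.918 (limma adjusted p = 0.0978). Without mgR611 and mgR612, its highest arrays, the difference was 1.67 with a smaller standard error of 0.236 and passed (limma adjusted p = 0.0207). That fit was chosen after the values were seen and kept only mgR613 and mgR614 of the mutant arrays. Over all alternatives the adjusted p ran from 0.0207 to 0.220.

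Ighv11-2 showed the same order of arrays. It read 7.70, 9.43, 4.91 and 4.87 on the mutant arrays and 3.77, 3.52, 3.76 and 4.0 on the wild-type arrays. Again the groups did not overlap, and mgR613 and mgR614 were close to each other and far below mgR611 and mgR612. The difference was 2.97 ± 0.899 (standard error; limma adjusted p = 0.157), and 1.13 without mgR611 and mgR612, where it passed (adjusted p = 0.0148; 0.0148 to 0.282 over all alternatives). The measured segments next to this pair in the locus had small differences: Ighv3-1 and Ighv14-2, either side of Ighv11-1, differed by 0.10 and 0.05, and Ighv14-3, after Ighv11-2, by 0.14.

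Ighv1-2, of the large mouse heavy chain family Ighv1, had the highest mean signal of the members, although signals of different probes do not compare transcript levels. It read 11.43, 12.94, 10.25 and 8.29 on the mutant arrays and 9.51, 7.44, 7.15 and 8.71 on the wild-type arrays. The groups overlapped, because mgR614 lay below WT675 and WT744. The difference of 2.53 ± 0.904 (standard error) did not pass (limma adjusted p = 0.234), and was 1.79 without mgR612 and 1.07 without mgR611 and mgR612. Its neighbours Ighv8-2 and Ighv10-1 differed by 0.18 and 0.26.

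The 3 heavy segments with the next highest mean signals showed small differences with overlap. Ighv2-5 read 8.02, 7.73, 7.27 and 7.78 on the mutant arrays and 7.42, 7.90, 7.75 and 7.79 on the wild-type arrays, a difference of -0.02 (limma adjusted p = 0.987). Ighv12-3, whose heavy chain is likewise known from phosphatidylcholine-binding B-1 cells, read 7.52, 7.37, 6.73 and 6.48 and 6.08, 6.72, 7.29 and 6.82. Its groups overlapped, with a difference of 0.30 (limma adjusted p = 0.743). Ighv10-1 read 6.91, 7.21, 6.06 and 6.48 and 6.44, 6.34, 6.89 and 5.96, also with overlap (0.26, limma adjusted p = 0.759). Below these in mean signal, Ighv1-55, chosen after its values were seen, read 6.40, 7.90, 6.06 and 5.46 against 5.45, 4.86, 4.87 and 5.16. It did not overlap and was highest on mgR612, with a difference of 1.37 (limma adjusted p = 0.179), or 0.89 without mgR612.

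Smaller but more even differences gave the lowest p-values among the 55 heavy segments above the signal filter. Ighv8-6 read 4.68, 4.23, 4.65 and 4.27 on the mutant arrays and 3.93, 3.80, 4.07 and 3.77 on the wild-type arrays, without overlap. Its wild-type mean lay in the dim range, and it was tested only through its mutant signals. The difference was 0.57 ± 0.130 (standard error; limma adjusted p = 0.0641, 0.0457 to 0.175 over all alternatives). Ighv1-14 read 5.36, 5.76, 5.44 and 5.09 against 5.08, 4.65, 4.45 and 4.70, where the lowest mutant value, on mgR614, was just above the highest wild-type value, on WT675. Its difference was 0.69 ± 0.172 (limma adjusted p = 0.0840).

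Ighv1-56 read 6.17, 5.50, 5.50 and 5.40 against 5.05, 4.98, 5.01 and 4.97. Its wild-type values were tight, mgR611 was the highest, and the groups did not overlap (difference 0.64 ± 0.165, limma adjusted p = 0.0963). The heavy segments with the lowest differences were Ighv5-4 and Ighv2-2. Ighv5-4 read 3.61, 4.42, 3.18 and 3.38 against 3.79, 3.83, 3.92 and 4.01, within the dim range except on mgR612, and was not tested (-0.24). Ighv2-2 read 5.56, 6.05, 5.30 and 5.58 against 5.34, 6.05, 5.86 and 6.08, with overlap (-0.21, limma adjusted p = 0.734).

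**Figure D3:**
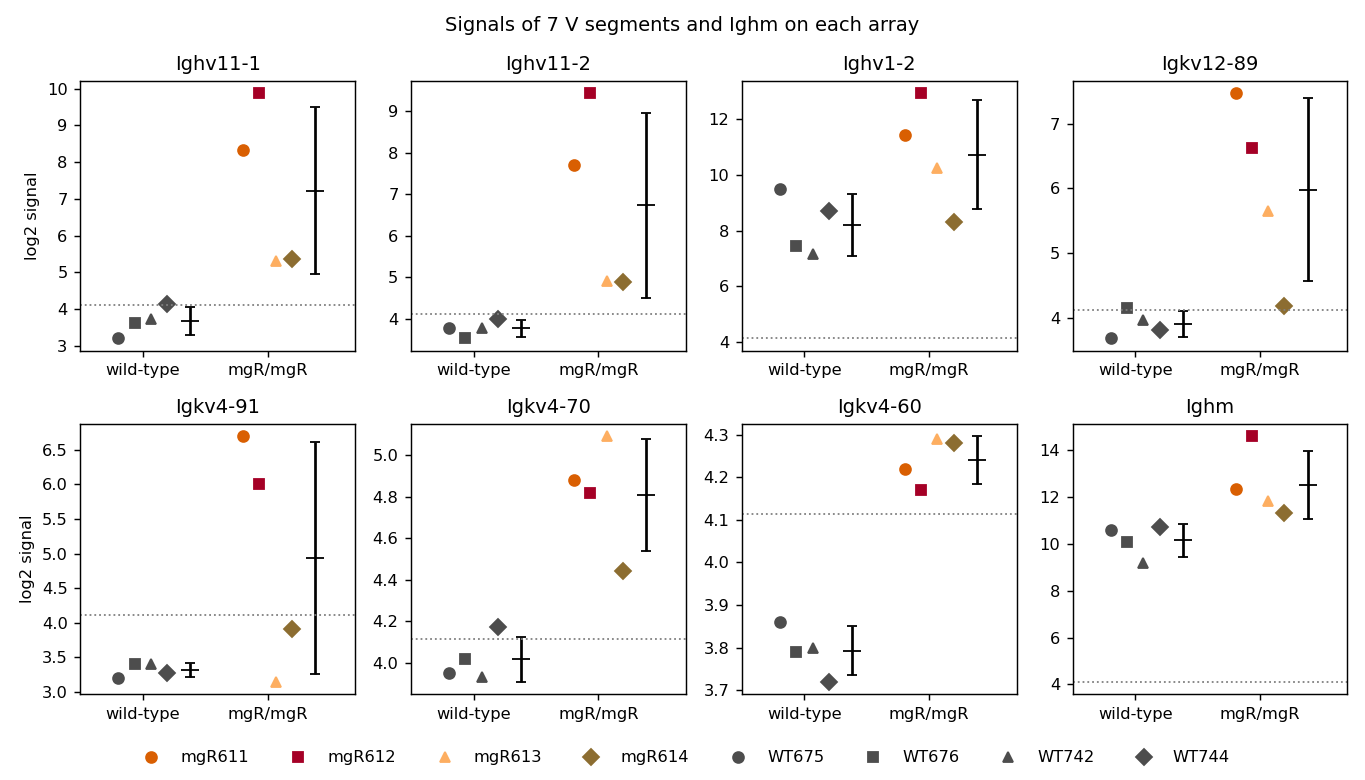
Log2 signals of 7 V segments and the heavy chain constant gene Ighm on each array, with the mean and SD of each genotype (n = 4) as a cross bar and whiskers; dotted lines mark the dim limit of 4.11 and each panel has its own axis. Ighv11-1, Ighv11-2 and Ighm are highest on mgR612, Igkv12-89 and Igkv4-91 on mgR611, and Igkv4-70 and Igkv4-60 show no overlap between genotypes.

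Both segments that passed were kappa segments of the Igkv4 family, and both were dim in wild-type aorta. Igkv4-70 read 4.88, 4.82, 5.09 and 4.44 on the mutant arrays and 3.95, 4.02, 3.93 and 4.17 on the wild-type arrays. The means were 4.81 ± 0.271 and 4.02 ± 0.109 (log2, SD, n = 4 each), with no overlap. The difference of 0.79 had a standard error of 0.137 (limma adjusted p = 0.0209). It did not pass without mgR611 (adjusted p = 0.0504), mgR612 (0.0511), WT675 (0.0668), WT676 (0.0586) or WT742 (0.0598), nor without both mgR611 and mgR612 (0.107).

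Igkv4-60 read 4.22, 4.17, 4.29 and 4.28 against 3.86, 3.79, 3.80 and 3.72. The mutant values lay close together and all above the wild-type values. The difference was 0.45 ± 0.073 (standard error; limma adjusted p = 0.0162), and it did not pass without WT744 (0.0618). Its mean signal over all arrays lay next to the filter at 4.01, so that it left the tested set when any 1 of the mutant arrays was left out.

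Igkv12-89 had the highest difference of all kappa segments. It read 7.47, 6.62, 5.65 and 4.18 on the mutant arrays and 3.68, 4.15, 3.97 and 3.81 on the wild-type arrays. The groups did not overlap, but mgR614 lay just above WT676. The difference was 2.08 ± 0.574 (standard error; limma adjusted p = 0.119), and leaving out mgR614 made it pass (2.68, adjusted p = 0.0163), with 0.0163 to 0.252 over all alternatives. Without mgR611 and mgR612 the difference was 1.01 (adjusted p = 0.252). Igkv4-91, the light chain segment known to pair with Ighv12-3 in B-1 cells, came next. It read 6.69, 6.00, 3.15 and 3.91 against 3.20, 3.41, 3.40 and 3.27, so that mgR611 and mgR612 were high while mgR613 was below all wild-type arrays (1.62, limma adjusted p = 0.313). Without mgR611 and mgR612 the difference in means was 0.21.

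Some kappa segments were raised on mgR612 alone. Igkv16-104 read 4.45, 8.29, 4.81 and 4.47 on the mutant arrays and 4.25, 4.20, 4.52 and 4.56 on the wild-type arrays. Igkv8-30 read 4.23, 7.35, 3.92 and 4.14 against 4.22, 4.01, 3.84 and 4.07. These segments were chosen after their values were seen, and the other 3 mutant arrays were near the wild-type range in both, with mgR613 somewhat above it in Igkv16-104. Their differences in means were 1.12 and 0.88, and 0.19 and 0.06 without mgR612.

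Of the brighter kappa segments, Igkv15-103 read 6.05, 6.69, 6.56 and 5.37 against 5.74, 5.12, 5.20 and 5.26, where mgR614 lay below WT675. Its difference was 0.84 (limma adjusted p = 0.199). Igkv19-93 read 5.84, 7.45, 5.82 and 5.49 against 4.64, 5.13, 5.32 and 5.21, without overlap and with mgR612 far above the others (1.08, limma adjusted p = 0.229; 0.64 without mgR612). Igkv8-34 read 5.62, 5.76, 5.60 and 5.50 against 5.70, 5.67, 5.54 and 5.31, with overlap (0.06, limma adjusted p = 0.884).

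Both named Igkv6 segments were higher on every mutant array than on every wild-type array. Igkv6-14 read 5.59, 5.81, 5.26 and 5.67 against 4.65, 5.10, 5.07 and 4.94, a difference of 0.64 ± 0.149 (limma adjusted p = 0.0659). Igkv6-13 read 4.32, 4.50, 4.80 and 4.96 against 4.21, 3.83, 3.83 and 3.87, with mgR614 and not mgR612 the highest. Its difference of 0.71 ± 0.154 missed the threshold (limma adjusted p = 0.0515) and passed without mgR611 (0.82, adjusted p = 0.0319) and without mgR611 and mgR612 (0.95, adjusted p = 0.0258). The arrays left out there held its lowest mutant values, so that the difference rose. The fit without both was chosen after the values were seen.

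The kappa segments with the lowest differences were Igkv14-100 and Igkv13-85. Igkv14-100 read 4.36, 4.48, 3.70 and 4.13 against 4.41, 4.38, 4.06 and 5.78, so that WT744 set the mean (-0.49, limma adjusted p = 0.601). Igkv13-85 read 3.26, 3.04, 3.57 and 3.14 against 3.70, 3.54, 3.60 and 3.32, all in the dim range, and was not tested (-0.29).

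**Figure D4:**
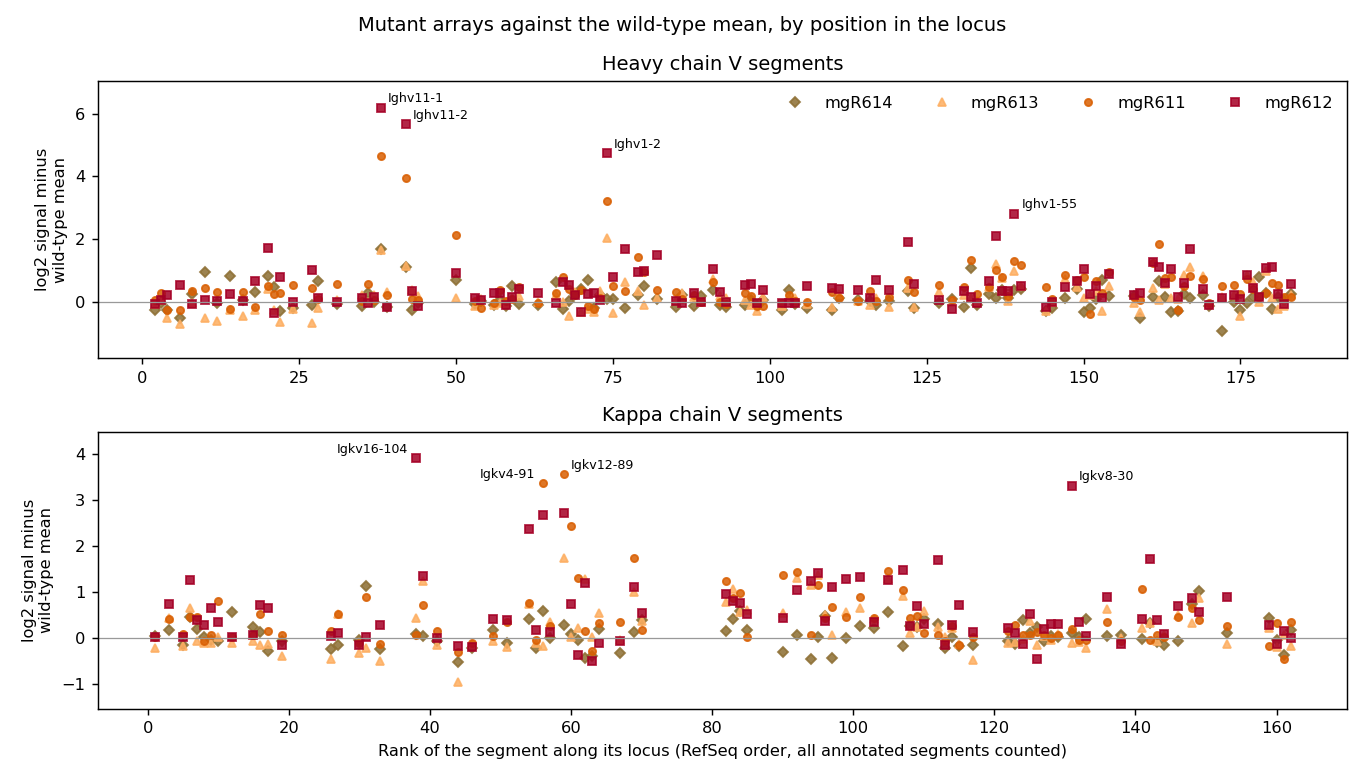
Each V segment is placed by its rank along the heavy (top) or kappa (bottom) locus in the RefSeq order of assembly GRCm38.p6, with its log2 signal minus the wild-type mean on each of the 4 mutant arrays. Single segments such as Ighv11-1 and Ighv1-2 stand far above their measured neighbours, whose differences in genotype means were at most 0.26. On single arrays a neighbour could be higher, as Ighv10-1 was, with 0.50 on mgR611 and 0.80 on mgR612. Igkv16-104 is far above on mgR612, but its measured neighbour Igkv15-103 also had a difference in genotype means of 0.84. Igkv4 segments form a run of moderate gains in the kappa locus.

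By family, Igkv4 is the largest kappa family on the array, and many of its members lie close together in the locus. Of its 25 members 23 were above 0, with a median difference of 0.51, and in 6 all mutant values exceeded all wild-type values. The median gain in this family was 0.48, 0.80, 0.57 and 0.15 on mgR611 to mgR614. On the wild-type arrays it was 0.19, -0.0033, 0.11 and -0.17, so that mgR614 lay within the wild-type range. The segments either side of Igkv4-70, Igkv4-71 and Igkv4-69, differed by 0.79 and 0.72. Igkv4-69 read 3.97, 3.75, 3.57 and 3.58 against 3.21, 3.12, 2.88 and 2.78, within the dim range on all arrays and without overlap.

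The 6 members of Igkv6 had a median difference of 0.53 and the 8 members of Ighv8 one of 0.54. The 61 members of Ighv1 had a median of 0.18, with 49 above 0. Their median gain was 0.29, 0.38, 0.13 and 0.05 on mgR611 to mgR614, and at most 0.13, on WT675, among the wild-type arrays. Ighv2, with 8 members, all tested, had a median difference of 0.0013, and Igkv2, with 5 members, one of -0.12. Members of a family resemble each other in sequence and are not independent measurements, and the differences between families were not tested.

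A further 24 transcript clusters were annotated with at least 1 V segment together with other genes, so no single gene can be named from them and they are not members. Their median difference was 0.37, and 21 of the 24 were above 0. Of the 19 tested, 1 passed as higher and 0 as lower (limma adjusted p), against 1.54% and 0.558% of all tested clusters. That cluster spanned variable, joining and constant genes of the kappa locus and read 5.26, 5.46, 5.07 and 5.02 against 4.57, 4.44, 4.61 and 4.63 (0.64, limma adjusted p = 0.0255), without overlap.

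The cluster with the highest difference listed 1 kappa segment and the symbol of the kappa locus as a whole. It read 9.01, 12.18, 5.49 and 5.53 on the mutant arrays and 3.70, 3.01, 3.81 and 3.40 on the wild-type arrays (4.57, limma adjusted p = 0.128), and the difference in means was 3.20 without mgR612 and 2.03 without mgR611 and mgR612. Its order of mutant arrays, with mgR612 first, mgR611 next and mgR613 and mgR614 close together, was that of both Ighv11 segments. Lambda chain genes were represented by 1 cluster of variable, joining and constant genes, which read 7.04, 8.15, 5.72 and 5.59 against 5.67, 5.19, 5.03 and 5.20. There mgR614 lay below WT675, and the difference of 1.35 did not pass (limma adjusted p = 0.254); it was 0.84 without mgR612 and 0.38 without mgR611 and mgR612.

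The constant regions to which heavy chain V segments are joined could be named for 4 of 8 heavy chain genes, and for 0 of 5 light chain genes. Ighm, the constant gene of IgM and the first to be expressed in a B cell, read 12.33, 14.59, 11.83 and 11.32 on the mutant arrays and 10.59, 10.09, 9.18 and 10.73 on the wild-type arrays. The groups did not overlap and mgR612 was the highest, but the difference of 2.37 ± 0.647 (standard error) did not pass (limma adjusted p = 0.114). Without mgR612 it was 1.68 (adjusted p = 0.0773).

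Of the switched isotypes, Ighg2b, of the IgG class, read 5.01, 3.96, 4.72 and 4.41 against 3.77, 3.95, 3.85 and 4.02, so that mgR612 was within the wild-type range (0.63, limma adjusted p = 0.173). Without mgR612, its lowest mutant array, the difference was 0.82 and passed (adjusted p = 0.0356). The wild-type mean of Ighg2b, 3.90, lay in the dim range, so that it was tested only through its mutant signals. With all arrays and no filter the limma adjusted p was 0.301. Ighg1 (0.25) and Ighe (0.05), of the IgG and IgE classes, were not tested because of low signal.

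**Figure D5:**
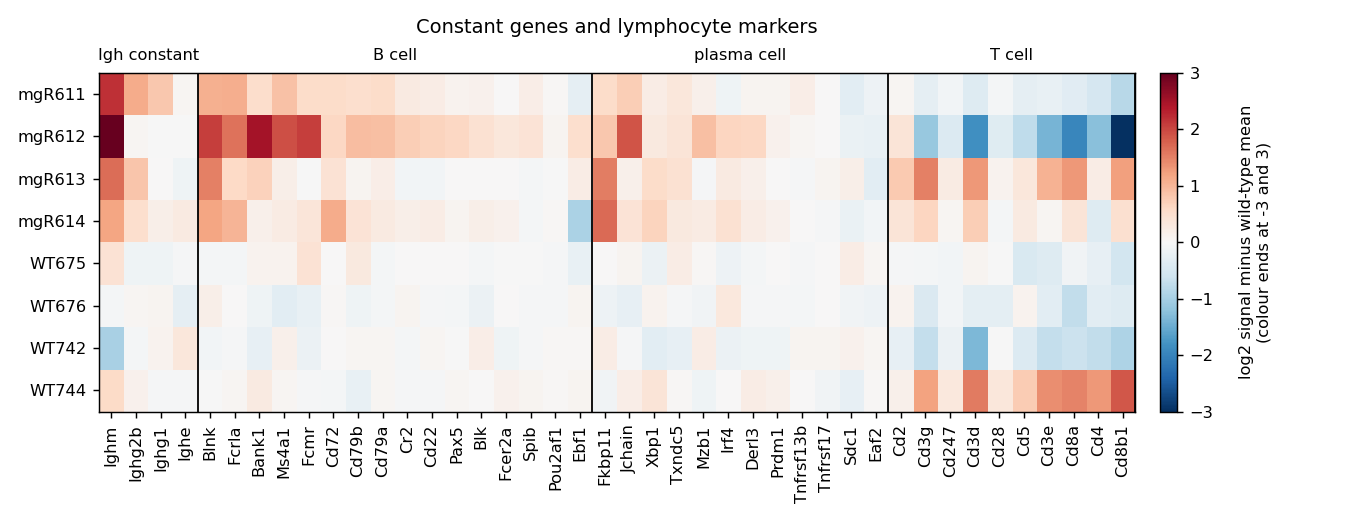
Colours give the log2 signal minus the wild-type mean for heavy chain constant genes and markers of B cells, plasma cells and T cells (columns) on the 8 arrays (rows), with the scale ended at -3 and 3. The row of mgR612 is reddest over the B cell markers and Ighm and bluest over the T cell markers, where mgR613 and WT744 are red.

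B cell markers were mostly highest on mgR612, the array with the most V segment gains over 1. The exception was Cd72, highest on mgR614, where V segment gains were fewest among the mutant arrays. Of 17 listed, 16 were measured, 15 were tested and 3 rose. The shares given above were 1.54% of all tested clusters and 401 of 17868 tested genes with 1 symbol. The mean over the 16 was 5.23, 5.86, 5.06 and 5.11 on the mutant arrays and 4.78 to 4.86 on the wild-type arrays, and the median difference was 0.38 (0.21 without mgR612). Wild-type means of 7 of the 16 lay in the dim range. Whether these cells account for the V segment differences was not tested.

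The 3 markers that rose were Blnk, an adaptor of B cell receptor signalling that macrophages also express, Fcrla, an Fc receptor-like protein of B cells, and Cd72, a coreceptor. Blnk read 6.25, 7.26, 6.68 and 6.36 against 5.11, 5.34, 5.09 and 5.16 (1.46, limma adjusted p = 0.00776). Fcrla read 5.50, 6.04, 5.01 and 5.42 against 4.36, 4.43, 4.38 and 4.47 (1.08, limma adjusted p = 0.0209), and did not pass without mgR614 or any 1 wild-type array (0.0548 to 0.0654). Cd72 read 5.15, 5.21, 5.03 and 5.71 against 4.61, 4.63, 4.61 and 4.54 (0.68, limma adjusted p = 0.0477), and did not pass without any 1 array other than mgR614 (0.0548 to 0.137). The groups did not overlap in any of the 3. All 13 macrophage markers rose in the same samples, with a median difference of 2.05 (1.99 without mgR612).

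Cd79a, the signalling chain that accompanies membrane immunoglobulin, read 5.03, 5.38, 4.69 and 4.74 against 4.43, 4.41, 4.54 and 4.54, without overlap (0.48, limma adjusted p = 0.172). Of 12 plasma cell markers, 9 were tested and 0 passed (limma; unadjusted p under 0.05 for 4 as higher and 0 as lower). Jchain, which links IgM and IgA into polymers, read 4.64, 5.77, 4.05 and 4.30 against 3.97, 3.66, 3.85 and 4.10, with mgR612 the highest and mgR613 below WT744 (0.80, limma adjusted p = 0.295; 0.44 without mgR612). Fkbp11, a chaperone of secretory cells, read 6.61, 6.87, 7.59 and 7.77 against 6.08, 5.92, 6.29 and 5.96 (1.15, limma adjusted p = 0.0538), and there mgR613 and mgR614 were the highest.

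T cell markers followed another order of arrays. Of 10 measured, all tested, 0 passed (limma; unadjusted p under 0.05 for 1 as higher and 0 as lower), and the median difference was -0.10, or 0.29 without mgR612. Without both mgR611 and mgR612 the median was 0.57, with 9 of 10 above 0. Cd8b1, a coreceptor chain of cytotoxic T cells and thymocytes, read 10.10, 7.24, 12.16 and 11.41 against 10.39, 10.54, 10.02 and 12.80, lowest on mgR612 and highest on WT744 (-0.71, limma adjusted p = 0.836). Dntt, the polymerase that adds bases at V(D)J joints in developing lymphocytes, read 5.98, 4.47, 7.82 and 7.08 against 6.36, 5.95, 5.76 and 8.09, with the same lowest and highest arrays. The Cd8b1 difference changed sign, to 0.29 without mgR612 and 0.85 without both mgR611 and mgR612. So did the Dntt difference of -0.20, to 0.42 and 0.91. Among 8 genes of the surrogate light chain and of V(D)J recombination, 6 were measured and 4 tested, and 0 passed (limma; 0 at an unadjusted p under 0.05 in either direction). The mutant arrays with the highest V segment signals, mgR612 and mgR611, were thus those with the lowest signals of Cd8b1 and Dntt within their genotype.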

How the data were processed

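RNA of 8 samples of ascending aorta was measured on Clariom D mouse arrays from Affymetrix, per the labels' protocols. The authors deposited normalized log2 signals, 1 per transcript cluster and array, rounded to 2 decimals. Transcriptome Analysis Console is the tool in the submitters' processing notes, where it has no version. How probes were summarised and normalized is not given in the sources used here, and no detection calls were used.

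Genes were named from the platform annotation where a cluster had 1 symbol (30604 clusters; 2146 had several and 33206 none). A symbol listed repeatedly counted once, and the brightest cluster stood for a gene. All 199 members matched RefSeq (GRCm38.p6), used only for names and neighbours. No sequences were at hand for them.

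Limma 3.58.1 in R 4.3.3 (lmFit, eBayes with an intensity trend) was fitted to all 65956 clusters, and p-values were adjusted by Benjamini-Hochberg over the 32957 clusters with a mean above the median of 4.01. All adjusted p-values come from this fit or its alternatives. It was tested on simulated data. Precision is limited by the number of arrays, with a median standard error of 0.151 per difference. Named were all segments past the threshold, and per class the 4 brightest, the 3 with the lowest p and the 2 with the highest and the 2 with the lowest differences. From other lists, genes past the threshold, up to 4 with the lowest p, and constant genes could be named. The members and lists were chosen with earlier results of these data known. Tables were made with Python 3.11.15 and pandas 2.3.3, figures with matplotlib 3.10.9.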

Additional observations from a re-analysis of the deposited data

Results flagged for a closer look

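In 5 of 122 groups of 4 arrays, 1 array stood apart from the other 3 by Dixon's test, where chance gives about 1 in 20. Among Fbn1mgR/mgR arrays, mgR611 had an Ighv1-56 signal of 6.17 against 5.40 to 5.50 on the others. Among wild-type arrays, WT675 had an Igkv6-13 signal of 4.21 against 3.83 to 3.87. The macrophage marker Mrc1 read 8.61 on WT742 against 9.35 to 9.43 on the other wild-type arrays. The smooth muscle marker Acta2 read 19.14 on mgR614 against 19.47 to 19.49, and 19.57 on WT742 against 19.49 to 19.50, close to the highest value of the table, 19.93.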

How the results depend on the processing

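The alternatives were array weights, eBayes with robust variances or with no trend, no filter, an upper-quartile filter, only clusters with 1 symbol, 3 other scalings, an adjusted p under 0.10, and each array left out. A fit without mgR611 and mgR612 was chosen after seeing the data. Over all clusters, 507 were higher and 184 lower. With 1 array left out these counts ran from 272 to 521 and from 67 to 146. They were 816 and 393 at an adjusted p under 0.10, and 99 were lower without the filter.

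The 2 V segments that were higher became 0 with the upper-quartile filter, where 5 members were tested, 4 with only clusters with 1 symbol and 9 at an adjusted p under 0.10. With 1 array left out the count ran from 0 (without mgR612) to 9 (without mgR614). For heavy segments it was 0, 1 with only clusters with 1 symbol, 1 with olfactory receptor centring, 2 without mgR611 and mgR612, 4 at 0.10, and 0 to 2 with 1 array left out. For kappa segments it was 2, 0 with the upper-quartile filter, 1 without mgR611 and mgR612, 5 at 0.10, and 0 to 7 with 1 array left out. No V segment was lower in any of these fits. The cause of these changes was not tested. The medians over all members kept their sign in every alternative run, from 0.06 to 0.22 for heavy and 0.10 to 0.39 for kappa segments. Of the values of single named genes under the alternatives, 949 kept direction and side of the threshold, 25 newly passed and 41 no longer passed.

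No paired analysis was possible because the genotypes share 0 replicate numbers in the labels.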
